A study of Homo sapiens with 6 samples.

Results

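The BCL2 family was followed through 10 genes in BT549 cells transfected with siRNA against basonuclin-2 (BNC2). Of the transcripts tested, those that moved most were of 2 BH3-only genes, PMAIP1 upwards and BMF downwards. The genes were chosen by symbol as the survival members BCL2, BCL2L1, MCL1 and BCL2A1, the BH3-only members BCL2L11, BBC3, PMAIP1 and BMF, and the effectors BAX and BAK1. All 10 were found among the 23346 genes of the count table, and 9 of them, all but BCL2A1, passed the filter on low counts (over 1 CPM, counts scaled to library size, in 3 or more of the 6 libraries), as did 12186 genes in all. BT549 is a mesenchymal-like human breast cancer cell line, labelled wild type. It was transfected either with 20 nM negative control (NC) siRNA or with 20 nM BNC2 siRNA, a mix of several siRNAs against BNC2, and poly(A) RNA was sequenced 6 d later from 3 biological replicates of each. Transfection was therefore common to both groups, and a single cell line was studied. All BNC2 siRNA libraries came from the same mix. Effects of BNC2 loss and other effects of these siRNAs cannot be told apart in these libraries.

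Cells commit to mitochondrial apoptosis when the effectors BAX and BAK1 oligomerise and open the outer mitochondrial membrane, which releases cytochrome c and leads to caspase activation. Survival members such as BCL2, BCL-XL (encoded by BCL2L1) and MCL1 hold the effectors and the BH3-only proteins in check. The BH3-only proteins BIM (BCL2L11), PUMA (BBC3), NOXA (PMAIP1) and BMF respond to stress, loss of growth factors, DNA damage or loss of anchorage, and insert a short helix, the BH3 domain, into a groove of the survival proteins. Several of these proteins are controlled after translation, so that transcript levels are a part of their regulation only.

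The BH3 helix is the element by which the members recognise one another, and its coding sequence shows what they share and where they part. The translated coding sequences of the GENCODE release 44 transcripts (MANE Select, mapped to GRCh37, the assembly that hg19 corresponds to) were searched for a leucine, any 3 residues, glycine or alanine, and aspartate. Of the 10 members, 9 held the pattern once and BCL2A1 held none. The lines give 30 bases, 5′ to 3′ on the coding strand, for the 4 BH3-only genes first, then for survival members and effectors. Capitals mark the codons of the leucine, the glycine or alanine, and the aspartate.
PMAIP1: actcaaCTCaggagatttGGAGACaaactg
BMF: cgaaagCTTcagtgcattGCAGACcagttc
BBC3: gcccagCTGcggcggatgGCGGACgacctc
BCL2L11: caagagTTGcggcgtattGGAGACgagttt
MCL1: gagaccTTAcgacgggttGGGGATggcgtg
BCL2L1: caagcgCTGagggaggcaGGCGACgagttt
BCL2: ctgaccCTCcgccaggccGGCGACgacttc
BAX: gagtgtCTCaagcgcatcGGGGACgaactg
BAK1: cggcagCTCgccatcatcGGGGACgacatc
BMF and BBC3 were the members with alanine at the fifth place, and the other 7 had glycine. The PMAIP1 stretch lies at chr18:57569899-57569928 on the plus strand, in exon 2 of 2, and the BMF stretch at chr15:40396402-40396431 on the minus strand, in exon 4 of 5. The PMAIP1 reading frame is the shortest of the set, with 54 codons, whereas that of MCL1 is the longest with 350.

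The libraries held 16093978 to 18246254 counts on genes, so that 3 counts corresponded to between 0.168 and 0.191 CPM. The target BNC2 stood at 58.5 ± 7.07 CPM in controls and 37.8 ± 3.25 CPM after knockdown (SD, n = 3 each), which left 64.6% of the control transcript level. The authors measured BNC2 as mRNA only, since they found no antibody that detected the protein reliably. Of the 12186 genes tested, 72.9% were called (adjusted p no higher than 0.05), and in 74.9% the 3 libraries of one group did not overlap those of the other. The first principal component, with 91.6% of the variance, separated the groups. The 5 mesenchymal markers VIM, FN1, ZEB1, CDH2 and SPARC summed to 6361 to 6454 CPM with NC siRNA and 6495 to 6748 CPM with BNC2 siRNA. Each of the 5 was itself called, 4 upwards, with log2 fold changes from 0.18 (VIM) to 1.36 (CDH2), and SPARC downwards (-0.52). None of the 5 epithelial and none of the 4 endothelial markers passed the filter, with sums of 0.180 to 0.338 and 0.619 to 1.40 CPM in controls and 0.113 to 0.127 and 0.191 to 0.872 CPM after knockdown. Of the 4 leukocyte markers CD14 passed, and their sum was 1.74 to 2.25 CPM in controls and 0.872 to 1.02 CPM after knockdown. The part of these low marker levels in the results was not tested. The defining markers EPCAM, ESRP1 and CDH5 had 0 counts throughout.

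Among the members tested, 2 (BCL2L1 and PMAIP1) were up-regulated with BNC2 siRNA and 4 (BCL2L11, BBC3, BMF and BAX) were down-regulated. BCL2, MCL1 and BAK1 were not called. The 6 called are 66.7% of the 9, near the 72.9% of all genes called (36.6% upwards and 36.2% downwards). In the same 6 genes, and in the untested BCL2A1, the groups did not overlap, against 74.9% of all genes. BMF exceeded the filter only in the NC siRNA libraries, so that its presence among the genes tested depended on its difference. The median log2 fold change of the 9 was -0.03, beside 0.00145 for all genes tested, and their median absolute log2 fold change was 0.28, beside 0.44. At least 2-fold changes were seen in PMAIP1 and BMF, whereas 18.1% of all genes were called with such a change. In bulk RNA, fewer cells with a transcript and less of it per cell cannot be told apart.

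**Figure D1:**
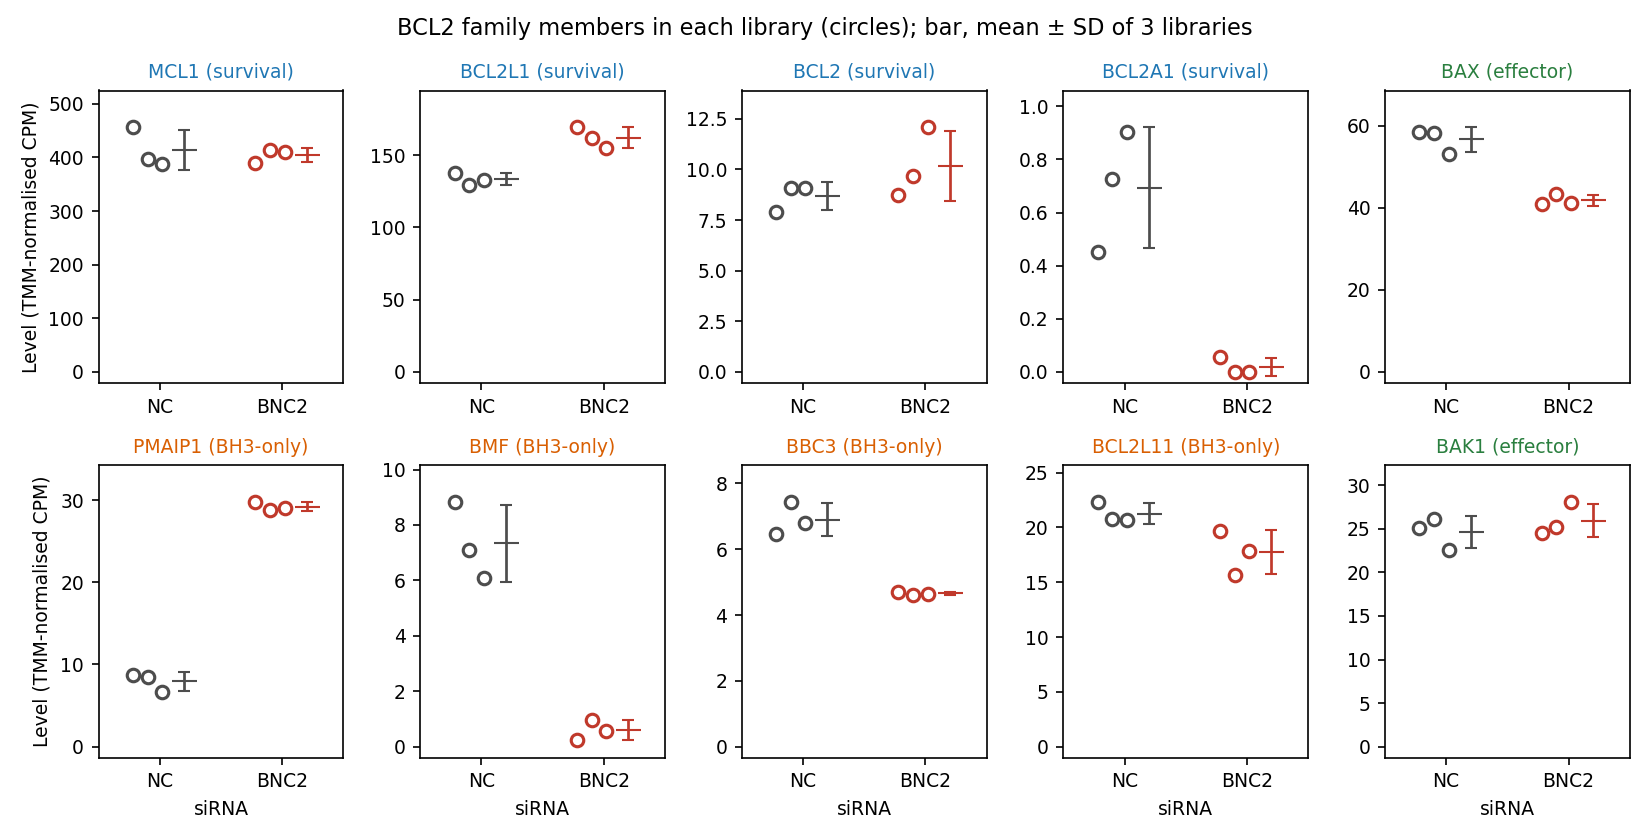
Level in TMM-normalised CPM (vertical axes, each from 0) of the 10 members in the 3 NC siRNA libraries (grey circles) and the 3 BNC2 siRNA libraries (red circles), with the mean and SD of each group beside them. PMAIP1 lies above 28 CPM in each BNC2 siRNA library and below 9 CPM in each NC siRNA library, BMF lies below 1 CPM in each BNC2 siRNA library, and the groups overlap in MCL1, BCL2 and BAK1.

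PMAIP1 encodes NOXA, a BH3-only protein that binds chiefly MCL1 and BCL2A1 and promotes MCL1 degradation. The gene (ENSG00000141682) lies on chromosome 18 of GRCh37 from 57567228 to 57571537 on the plus strand. The control libraries held 8.67, 8.51 and 6.62 CPM, and the knockdown libraries 29.8, 28.8 and 29.0 CPM. The lowest BNC2 siRNA library was thus well above the highest NC siRNA library, and the 3 knockdown values were close to one another. The rise was 3.67-fold, with a log2 fold change of 1.88 (95% interval 1.65 to 2.10, adjusted p = 1.1e-10, edgeR's quasi-likelihood test), and 4.73% of the genes tested changed by more in either direction. Leaving out single libraries kept the log2 fold change between 1.75 and 1.92.

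BMF encodes a BH3-only protein that is tethered to the actin-associated motor complexes of the cytoskeleton and is known for its part in the death of detached epithelial cells. The gene (ENSG00000104081) lies on chromosome 15 from 40380091 to 40401093 on the minus strand. Control libraries held 157, 127 and 101 counts (8.83, 7.11 and 6.07 CPM), and knockdown libraries 4, 17 and 9 counts (0.232, 0.958 and 0.572 CPM). All 3 knockdown libraries were far below all 3 controls, while the knockdown libraries differed among themselves at these low counts. BMF was 12.3-fold lower (log2 fold change -3.62, 95% interval -4.23 to -3.01, adjusted p = 8.3e-09, edgeR's quasi-likelihood test), and 0.689% of genes changed by more. The size of the fall depended on the knockdown library left out, from a log2 fold change of -4.19 without replicate 2 to -3.23 without replicate 1.

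BBC3 encodes PUMA, which binds all of the survival proteins and is among the most potent BH3-only proteins. The gene (ENSG00000105327) lies on chromosome 19 from 47724079 to 47736023 on the minus strand. It was weakly expressed, at 6.47, 7.44 and 6.80 CPM with NC siRNA and 4.71, 4.62 and 4.64 CPM with BNC2 siRNA. The groups did not overlap, and the 3 knockdown values were nearly equal. BBC3 fell by 0.57 on the log2 scale (95% interval -0.86 to -0.27, adjusted p = 0.0016, edgeR's quasi-likelihood test).

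BCL2L11 encodes BIM, the BH3-only protein that rises on growth factor withdrawal and is held down by ERK signalling. The gene (ENSG00000153094) lies on chromosome 2 from 111876955 to 111926021 on the plus strand. BCL2L11 was at 22.3, 20.8 and 20.7 CPM in controls and 19.7, 15.7 and 17.9 CPM after knockdown. The highest knockdown library came close to the lowest control, without overlap. The fall of 0.26 on the log2 scale (95% interval -0.47 to -0.05, adjusted p = 0.024, edgeR's quasi-likelihood test) was the weakest call among the members. It rested on BNC2 siRNA replicate 2, without which the log2 fold change was -0.17 and the adjusted p 0.16. The counts do not separate the BIM isoforms.

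BAX, the effector that moves from the cytosol to mitochondria, lies on chromosome 19 from 49458072 to 49465055 on the plus strand (ENSG00000087088). Control libraries held 58.5, 58.3 and 53.2 CPM of BAX, and knockdown libraries 41.0, 43.4 and 41.2 CPM. Each knockdown library was below each control library, and BAX fell to 73.9% of its control level (log2 fold change -0.44, 95% interval -0.58 to -0.29, adjusted p = 2.6e-05, edgeR's quasi-likelihood test). BAK1, the effector that resides in the mitochondrial membrane, lies on chromosome 6 from 33540324 to 33548070 on the minus strand (ENSG00000030110). It was at 25.2, 26.1 and 22.6 CPM with NC siRNA and 24.6, 25.2 and 28.1 CPM with BNC2 siRNA. These values overlapped, and a difference was not found (log2 fold change 0.07, 95% interval -0.11 to 0.26, adjusted p = 0.47). The interval of BAK1 does not reach that of BAX, although the difference between both changes was not tested.

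Of the survival members, BCL2L1, whose main product is BCL-XL, was the one called. The gene (ENSG00000171552) lies on chromosome 20 from 30252255 to 30311792 on the minus strand. BCL2L1 was at 138, 129 and 133 CPM in controls and 169, 162 and 155 CPM after knockdown. The knockdown libraries were all higher, and the rise was 1.22-fold (log2 fold change 0.28, 95% interval 0.16 to 0.40, adjusted p = 0.00032, edgeR's quasi-likelihood test). As with BIM, the counts do not tell the long isoform from the short, pro-apoptotic one.

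MCL1, a short-lived survival protein and the partner of NOXA, had the highest level of the members per length of transcript (RPKM). The gene (ENSG00000143384) lies on chromosome 1 from 150533371 to 150552214 on the minus strand. It was at 456, 397 and 387 CPM with NC siRNA and 390, 415 and 410 CPM with BNC2 siRNA. The groups overlapped, with 1 control library above the rest, and the log2 fold change was -0.03 (95% interval -0.17 to 0.10, adjusted p = 0.67). A change of MCL1 transcript by more than these bounds was thus outside the 95% interval.

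BCL2, the founding member, lies on chromosome 18 from 60790579 to 60987361 on the minus strand (ENSG00000171791) and was weakly expressed. It measured 7.88, 9.06 and 9.08 CPM in controls and 8.72, 9.69 and 12.1 CPM after knockdown. The groups overlapped and the log2 fold change of 0.23 was not called (95% interval -0.06 to 0.51, adjusted p = 0.15), with values from 0.08 to 0.33 when single libraries were left out.

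BCL2A1, a survival gene known as a target of NF-κB, lies on chromosome 15 from 80253234 to 80263538 on the minus strand (ENSG00000140379) and was close to the limit of detection. Control libraries held 8, 13 and 15 counts, and knockdown libraries 1, 0 and 0. Summed over the libraries, 36 counts stood against 1, a ratio of 34.9 after scaling (exact 95% binomial interval 5.88 to 1416, counting error only). Tested without the filter on low counts, BCL2A1 passed the threshold (adjusted p = 3.2e-06, edgeR's quasi-likelihood test), and its size is not given from that fit because it depends on the prior count. Adjusted p-values of that fit were lower than with the filter by many orders of magnitude in PMAIP1 and BMF. In BCL2L11 and BBC3 they were similar. The value of BCL2A1 is thus not comparable with those of the members that passed the filter.

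**Figure D2:**
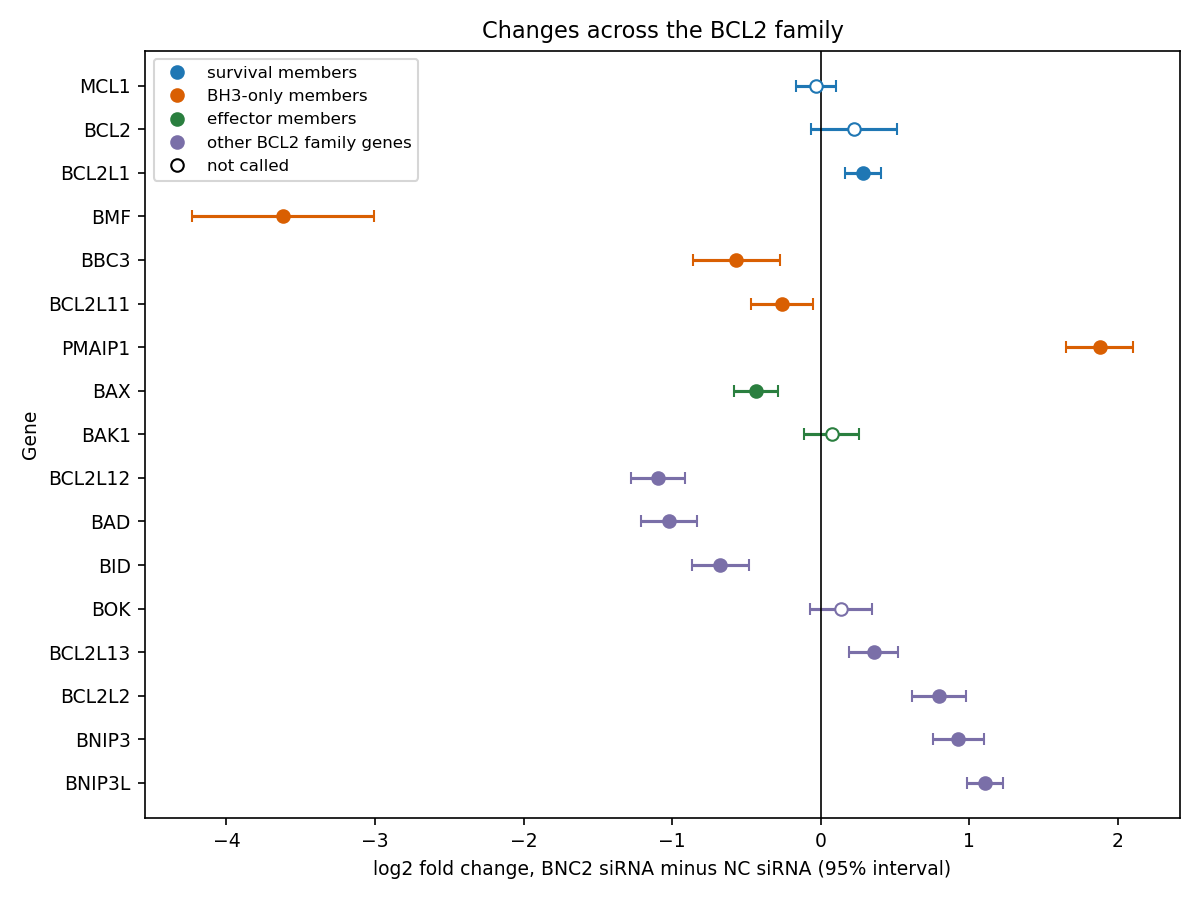
Log2 fold change of BNC2 siRNA against NC siRNA (horizontal axis) with its 95% interval for the 9 members tested and the 8 other BCL2 family genes tested, where filled symbols are called and open symbols are not. BMF (-3.62) and PMAIP1 (1.88) lie farthest from 0 and in opposite directions, while the intervals of MCL1, BCL2, BAK1 and BOK include 0.

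Comparison of levels between genes requires the length of each, and counts were divided by the kilobases of the union of annotated exons (RPKM). With NC siRNA, MCL1 was highest at 66.5 ± 5.98 RPKM (SD, n = 3), followed by BCL2L1 at 31.7 ± 0.976, BAX at 21.9 ± 1.15 and BAK1 at 11.1 ± 0.821 RPKM. PMAIP1 (3.63 ± 0.522 RPKM) and BCL2L11 (3.15 ± 0.138 RPKM) followed, with the mean of BCL2L11 within 1 SD of that of PMAIP1. BBC3 at 2.17 ± 0.155 and BMF at 1.35 ± 0.256 RPKM came next. BCL2A1 (0.697 ± 0.229 RPKM) and BCL2 (0.688 ± 0.0547 RPKM) were lowest and did not differ beyond their spread. Within the summed level of the 4 survival members, MCL1 and BCL2L1 together made up 98.6% ± 0.360 (SD, n = 3) with NC siRNA and 99.2% ± 0.116 (SD, n = 3) with BNC2 siRNA. This sum leaves out the survival gene BCL2L2, which is not among the 10 (25.7 CPM with NC siRNA and 44.6 CPM with BNC2 siRNA).

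With BNC2 siRNA, PMAIP1 moved from the fifth to the fourth place (13.4 ± 0.244 RPKM), above BAK1 (11.7 ± 0.854 RPKM), and BMF (0.108 ± 0.0667 RPKM) fell below BCL2 (0.806 ± 0.137 RPKM). Of the summed level of the 4 BH3-only members, PMAIP1 supplied 36.3%, 36.7% and 32.4% in controls and 75.4%, 76.9% and 75.9% after knockdown. The summed level of these 4 members accordingly rose from 10.3 ± 0.840 to 17.6 ± 0.481 RPKM. That of BCL2L11, BBC3 and BMF alone went from 6.67 ± 0.328 to 4.20 ± 0.246 RPKM (SD, n = 3). Outside these sums, the BH3-only gene BAD fell from 48.6 to 24.0 CPM and BID from 29.4 to 18.4 CPM, beside a rise of PMAIP1 from 7.93 to 29.2 CPM. The rise therefore holds for the 4 members, and a sum with BAD and BID was not computed. Relative to MCL1, PMAIP1 stood at 5.45% ± 0.616 with NC siRNA and 20.6% ± 1.04 with BNC2 siRNA (SD, n = 3). The summed level of the 4 survival members was 99.6 ± 6.55 and 104.5 ± 1.31 RPKM, and that of BAX and BAK1 33.0 ± 1.95 and 27.9 ± 0.875 RPKM. These sums are descriptions without a test.

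The levels depend on the length chosen. With the longest annotated transcript or the MANE Select transcript (a length added after the data were seen) as length, the NC siRNA means of BAX and BCL2L1 were 41.7 ± 2.20 and 40.9 ± 1.26 RPKM, which did not differ beyond their spread, and 71.3 ± 3.75 and 51.8 ± 1.59 RPKM (SD, n = 3), respectively. The mean of BCL2A1 was then below that of BCL2. The share of PMAIP1 in the summed level of the 4 BH3-only members was then 30.6% and 30.5% with NC siRNA, and 71.7% and 71.5% with BNC2 siRNA.

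**Figure D3:**
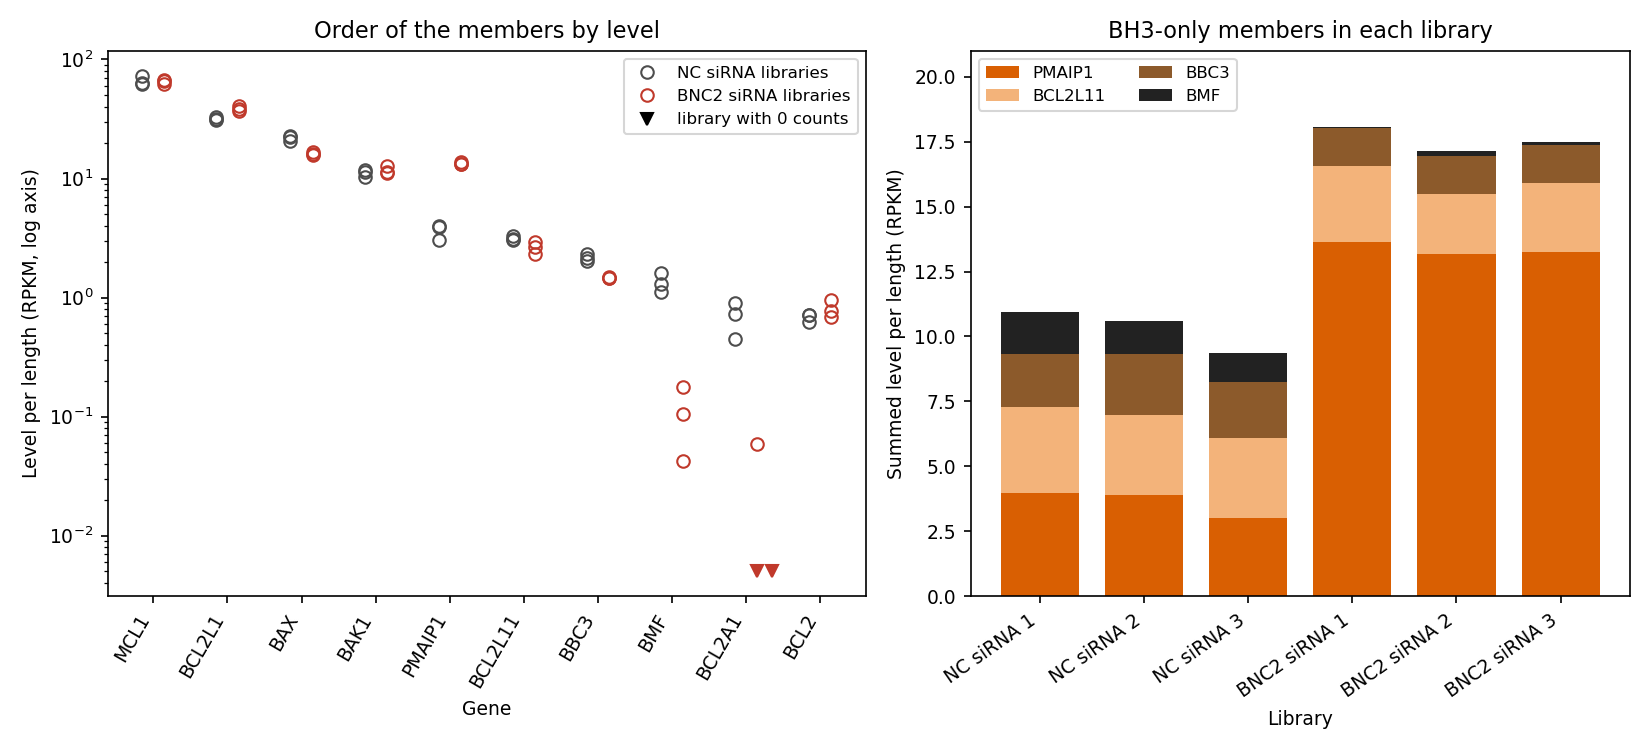
Left, level per length (RPKM, log axis) of the 10 members in each NC siRNA library (grey) and each BNC2 siRNA library (red), ordered by the NC siRNA mean, with triangles for the libraries in which BCL2A1 had 0 counts. Right, the levels of the 4 BH3-only members stacked for each library (RPKM, from 0), in which the share of PMAIP1 is between 32.4% and 36.7% with NC siRNA and between 75.4% and 76.9% with BNC2 siRNA.

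Several members overlap genes on the opposite strand (BCL2L1 with BCL2L1-AS1 and ABALON, BCL2L11 with MIR4435-2HG, BMF with BMF-AS1, MCL1 with ADAMTSL4, BBC3 with MIR3191 and BAK1 with GGNBP1). The deposited counts are those of 1 strand. Reads on the other strand made up 0.315% of the reads of PMAIP1, 1.19% of BMF, 1.60% of BAX and at most 3.40% (BBC3) over the 10 members.

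Beyond these 10, the rest of the family held 13 genes, of which 8 were tested, 4 up-regulated and 3 down-regulated (median log2 fold change 0.25). These 7 are 87.5% of the 8, beside 72.9% of all genes called, with a median of 0.00145. BOK, an effector-like member, was not called (17.7 ± 1.94 and 19.5 ± 1.02 CPM, adjusted p = 0.23). BCL2L10, BIK, HRK, BCL2L14 and BCL2L15 did not pass the filter. BNIP3L and BNIP3, mitophagy receptors with a BH3-like stretch, rose from 204 ± 7.65 to 439.7 ± 17.8 CPM (log2 fold change 1.10, adjusted p = 3.4e-11) and from 48.0 ± 4.48 to 91.2 ± 8.78 CPM (log2 fold change 0.93, adjusted p = 2.8e-08). The survival gene BCL2L2, which encodes BCL-W, rose from 25.7 ± 2.32 to 44.6 ± 3.18 CPM (log2 fold change 0.80, adjusted p = 2.9e-07). It overlaps the read-through gene BCL2L2-PABPN1, which is listed at 0 in each library, so that shared reads make its level uncertain. The BH3-only gene BAD fell from 48.6 ± 2.61 to 24.0 ± 2.86 CPM (log2 fold change -1.02, adjusted p = 2.5e-08), and BID, the link from death receptors to mitochondria, by 0.68 on the log2 scale (adjusted p = 3.8e-06). BCL2L12 fell from 30.3 ± 0.664 to 14.2 ± 0.827 CPM (log2 fold change -1.09, adjusted p = 7.1e-09), and BCL2L13 rose by 0.36 (adjusted p = 0.00053). All adjusted p-values of this paragraph come from edgeR's quasi-likelihood test over 12186 genes, and each CPM value is the mean ± SD of 3 libraries.

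Of the 9 genes of mitochondrial release and the apoptosome, 2 rose, 4 fell and 3 (the VDAC genes) were not called. The share called, 66.7%, was near the 72.9% of all genes, and the median log2 fold change was -0.12. The 2 that rose were CYCS, which encodes cytochrome c (log2 fold change 0.61, adjusted p = 6.3e-07, edgeR's quasi-likelihood test), and APAF1, the scaffold of the apoptosome (0.55, adjusted p = 2.3e-05).

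The inhibitors of apoptosis and the death receptors were mixed. Of 6 inhibitors tested, 4 rose and 1 (BIRC3) fell, which is 83.3% called beside 72.9% of all genes, and the median log2 fold change was 0.54 beside 0.00145. The largest changes were those of NAIP (log2 fold change 1.07, standard error 0.28, adjusted p = 0.0029, edgeR's quasi-likelihood test) and BIRC6 (0.72, adjusted p = 2.0e-06). NAIP was near the filter, at 0.926 CPM in controls and 1.94 CPM after knockdown, and has near-identical copies, which makes its counts uncertain. Its BNC2 siRNA libraries (1.98, 1.69 and 2.16 CPM) all exceeded 1 CPM, but of its controls (0.675, 0.839 and 1.26 CPM) only replicate 3 did. Its presence among the genes tested, and in the count and median of the inhibitors, thus depended on its difference. In the death receptor pathway 3 genes rose, 3 fell and 2 were not called of 8 tested, so that 75% were called beside 72.9% of all genes, and the median log2 fold change was -0.09. FAS fell from 12.9 ± 0.0646 to 6.67 ± 0.909 CPM (log2 fold change -0.95, adjusted p = 2.8e-06), and CFLAR, the decoy of caspase-8, from 90.0 ± 5.06 to 47.0 ± 3.04 CPM (log2 fold change -0.94, adjusted p = 3.7e-09).

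Among transcription factors known for a part in the control of members, DDIT3 (CHOP), a stress factor linked to BCL2L11 and BBC3, fell from 13.8 ± 1.02 to 5.62 ± 0.628 CPM (log2 fold change -1.29, adjusted p = 9.6e-08, edgeR's quasi-likelihood test). TP73 fell by 0.81 on the log2 scale (adjusted p = 0.0055) from 2.70 CPM. Of the genes that act on MCL1 protein, 5 were tested, 2 rose and 3 fell, beside 72.9% of all genes called in either direction, and their median log2 fold change was -0.18. HUWE1, a ubiquitin ligase for MCL1, rose from 718 ± 55.3 to 1179 ± 44.7 CPM (log2 fold change 0.72, adjusted p = 2.2e-08), and BTRC, another ligase component, fell by 0.60 (adjusted p = 1.4e-05).

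**Figure D4:**
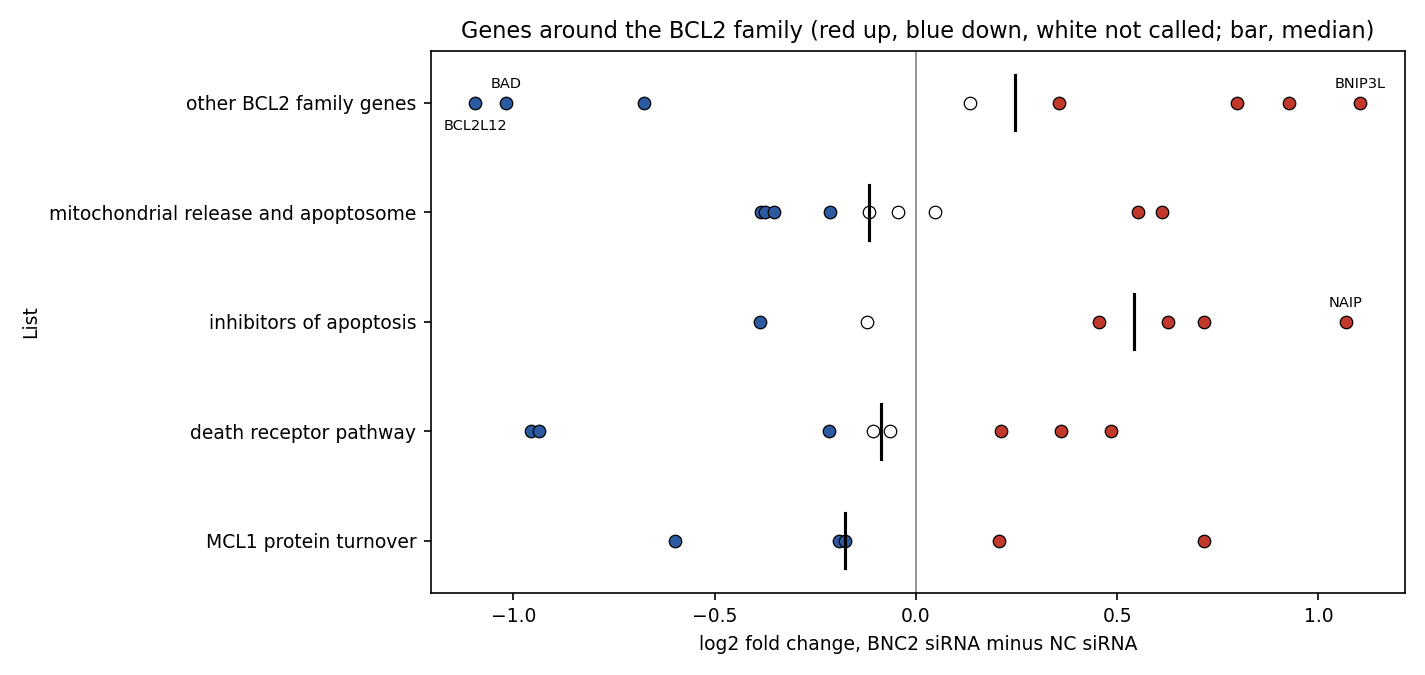
Log2 fold change of BNC2 siRNA against NC siRNA (horizontal axis) for each tested gene of 5 lists around the BCL2 family (rows), coloured by call, with a vertical bar at each list's median and names for genes that changed at least 2-fold. The inhibitors of apoptosis have the highest median, 0.54 with NAIP included, and BCL2L12 (-1.09), BAD (-1.02), NAIP (1.07) and BNIP3L (1.10) are the genes past 2-fold.

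The member calls were little affected by the test, scaling or filter. With BNC2 siRNA, 2 members were up-regulated under each of 14 alternatives and between 3 and 5 were down-regulated. The number of 5 came from the fit without a low-count filter, which tested BCL2A1 as well. BMF was not tested when any NC siRNA library was left out, since only 2 libraries then exceeded 1 CPM.

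**Figure D5:**
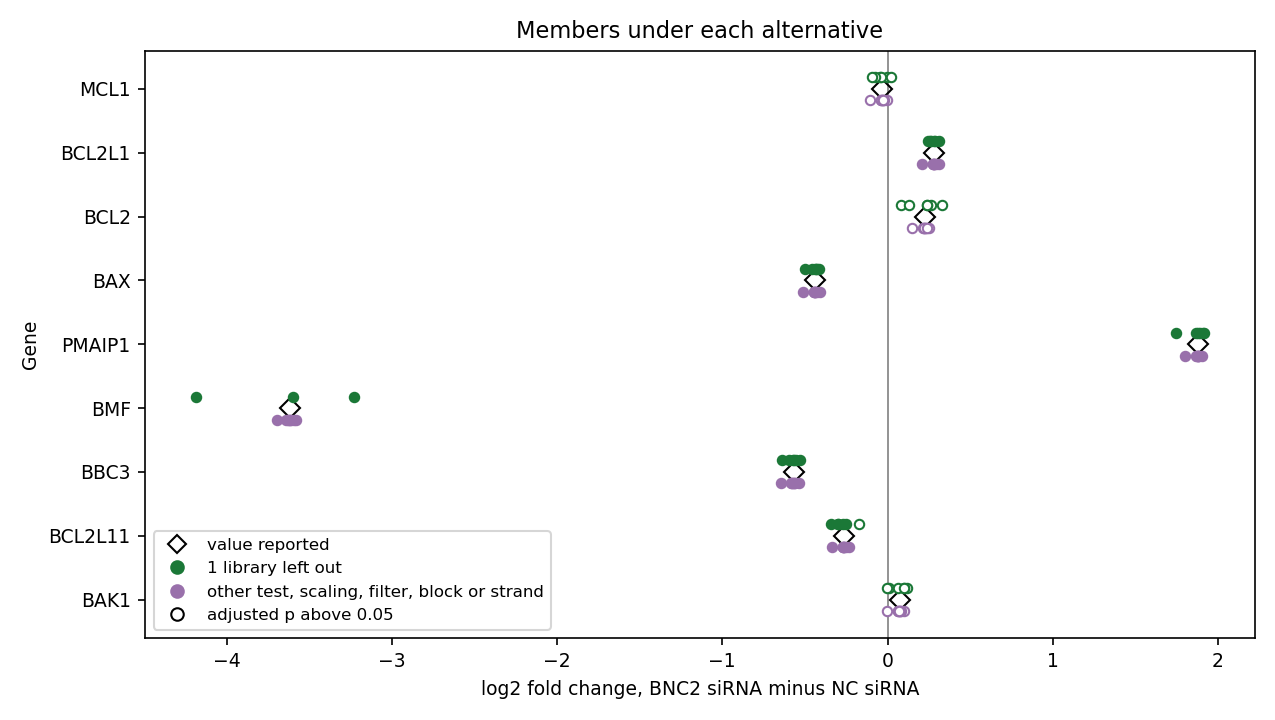
Log2 fold change of the 9 members tested (rows) as reported (diamonds), with each library left out in turn (green) and under the other test, scaling, filter, block and strand settings (purple), where open circles have an adjusted p above 0.05. BMF spreads from -4.19 to -3.23 and PMAIP1 from 1.75 to 1.92, and BCL2L11 has 1 open circle.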

How the data were processed

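The authors aligned single-end reads to hg19 with STAR (2.6.1d in the submitters' processing notes) and the iGenomes UCSC annotation, and deposited the raw counts of uniquely mapped reads per gene for 6 libraries, which were described as biological replicates. The series table matched the reverse-strand column of the library tables in 23346 of 23346 genes. Reads not assigned to a gene (37.7% to 41.1% of a library, with multimapping, unmapped and ambiguous reads included) were left out. R 4.3.3 with edgeR 4.0.16 was used (TMM scaling, quasi-likelihood test, Benjamini-Hochberg adjustment over the 12186 genes above 1 CPM in 3 or more libraries, calls at adjusted p of at most 0.05). CPM (TMM-scaled) and RPKM were computed here from the counts, the latter with GENCODE release 44 exon lengths. Standard errors are the log2 fold change over the square root of F. An exact permutation test of 3 against 3 libraries cannot give p below 0.1. Alternatives were edgeR's likelihood ratio test, DESeq2 1.42.0, its size factors, total-count scaling, counts of both strands, filterByExpr, no filter, a replicate block and leaving out each library. The test was checked on simulated data, in which 200 of 200 genes changed 2-fold were recovered with 6 false calls among 12103 genes. The changed genes there were few, beside the 72.9% called in these data, and were drawn from genes with higher counts. The check therefore does not cover so broad a change, changes below 2-fold, or genes with low counts such as BCL2A1 and NAIP. The members and lists were chosen with earlier results of these data known. All members are named, as is every tested gene of the remaining family. In the other lists, called genes with at least 2-fold changes are named or, where there were fewer than 2, the 2 largest changes. BIRC3 and the VDAC genes were named after their values were seen. Some genes and lists were analysed but are not reported here.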

Additional observations from a re-analysis of the deposited data

How the results depend on the processing

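The 14 alternatives left the direction and call of 6 of the 9 members tested, and of the genes named by rule from the other lists, as reported wherever the gene was tested. BNC2, BIRC3, the VDAC genes and the mesenchymal, epithelial, leukocyte and endothelial markers were not followed through the alternatives. BCL2L11 lost its call without BNC2 siRNA replicate 2 (log2 fold change -0.17). The uncalled changes of MCL1 and BAK1 turned sign, MCL1 without NC siRNA replicate 1 (-0.0959 to 0.0182 with single libraries left out), and BAK1 without NC siRNA replicate 3 (-0.0033 to 0.117) and, at -0.0025, with scaling by total counts only. The cause was not tested. Total-count scaling moved the median log2 fold change of all genes to -0.07. Over the alternatives, 8084 to 9662 genes were called in all. Replicate numbers did not pair the libraries: the deviations of same-numbered libraries from their group means correlated at -0.26, -0.09 and -0.15. With a replicate block, 2 members were called up and 4 down, and 8399 genes in all. BMF and BCL2A1 had at most 17 counts per BNC2 siRNA library, which limits the precision of their falls.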
